A study of Mus musculus with 4 samples.

Results

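The integrin and laminin chain genes are 38 of the 29179 genes in a mouse RNA-seq table, chosen by gene name alone: 18 integrin alpha chains, 9 integrin beta chains and 11 laminin chains. They were followed in the mouse line YAMC, which the labels call colonocytes of young adult mice and which grows under permissive conditions. All 4 cultures were grown at passage 10 to 12 in interferon-gamma (5 U/mL) at 33 °C, transfected with siRNA at 50 nM by lipofection, and moved to 37 °C without interferon after 24 h. The groups were a control siRNA followed by medium, a control siRNA followed by TNF, an siRNA against Sirt6 followed by medium and an siRNA against Sirt6 followed by TNF. TNF was given at 100 ng/mL from 48 h after transfection for 24 h. Each group is 1 library from a single line, so no difference between 2 libraries below has a replicate check or a p-value. The design sets TNF against medium and Sirt6 siRNA against control siRNA.

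Integrins are cell surface receptors made of 1 alpha and 1 beta chain, and the pairing sets the ligand: laminins, collagens, or matrix proteins with the RGD tripeptide such as fibronectin and vitronectin. Laminins are secreted trimers of an alpha, a beta and a gamma chain that form the sheet-like polymer of basement membranes. In the gut the basement membrane lies under the epithelium, which holds on to it largely through integrins with the beta1 or beta4 chain.

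Read totals over all genes were 22422365, 18793708, 23749380 and 21755516 in the order control siRNA without TNF, control siRNA plus TNF, Sirt6 siRNA without TNF and Sirt6 siRNA plus TNF. That order is kept for every set of 4 values. Levels are RPM (reads per 1000000 reads) after TMM scaling of the library sizes, and ratios are log2 ratios of scaled reads. Ranges in parentheses are 95% intervals that cover counting error only. A gene is said to have risen or fallen only where the ratio reached 2-fold and the interval left out no change. Sirt6 had 388 and 352 reads with control siRNA against 171 and 150 with its siRNA (log2 -1.26 in medium and -1.41 with TNF). Tnfaip3, a gene that TNF is known to induce, had 2304 and 1660 reads in medium against 7610 and 8237 with TNF. Both checks of the labels went the way the labels say.

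The markers of intestinal epithelium went against the name colonocyte. Of 15 epithelial markers, 5 reached 1 RPM in any library: the keratins Krt8, Krt18 and Krt19, the cadherin Cdh1 and the stem cell receptor Lgr5. The epithelial adhesion gene Epcam had 0, 0, 0 and 2 reads, the brush border gene Vil1 had 0, 4, 0 and 0, and the intestinal factor gene Cdx2 had 2, 0, 0 and 0. All 4 mesothelial markers and 10 of 12 fibroblast markers reached 1 RPM, the first with a summed level of 2191, 1773, 2388 and 1915 RPM and the second with 6356, 5321, 6506 and 5497 RPM. The cells are therefore called YAMC cells here, with no cell type. The summed epithelial level was 1817, 1345, 1500 and 1190 RPM, and the 3 sums were all lower with TNF; their part in the TNF results below was not tested. In a bulk library, fewer cells of a type and less RNA per cell cannot be told apart.

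Upstream sequence is shown for the 3 integrin genes on which the results turn most: Itga2, with the largest TNF ratios, Itga5, with a smaller ratio over more reads, and Itgb1, whose level was the highest. Each is the 250 bases before the RefSeq start of the gene on GRCm38.p6, written 5′ to 3′ on the gene's strand, with matches to the GC box GGGCGG in capitals (on the other strand a match reads CCGCCC). They lie at chr13:114932101-114932350 on the minus strand for Itga2, chr15:103366792-103367041 on the minus strand for Itga5 and chr8:128685404-128685653 on the plus strand for Itgb1. The fourth sequence is a 30-base stretch of Lamb3 at chr1:193302007-193302036 on the plus strand, with its match to the NF-kB motif in capitals.
Itga2: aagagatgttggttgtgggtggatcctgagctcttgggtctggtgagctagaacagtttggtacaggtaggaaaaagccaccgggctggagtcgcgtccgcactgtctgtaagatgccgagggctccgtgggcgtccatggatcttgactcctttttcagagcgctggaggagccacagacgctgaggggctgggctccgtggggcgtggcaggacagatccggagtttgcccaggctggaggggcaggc
Itga5: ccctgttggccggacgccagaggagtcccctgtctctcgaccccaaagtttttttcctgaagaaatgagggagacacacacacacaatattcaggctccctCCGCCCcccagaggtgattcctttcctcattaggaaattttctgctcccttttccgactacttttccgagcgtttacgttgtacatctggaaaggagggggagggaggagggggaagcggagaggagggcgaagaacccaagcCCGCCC
Itgb1: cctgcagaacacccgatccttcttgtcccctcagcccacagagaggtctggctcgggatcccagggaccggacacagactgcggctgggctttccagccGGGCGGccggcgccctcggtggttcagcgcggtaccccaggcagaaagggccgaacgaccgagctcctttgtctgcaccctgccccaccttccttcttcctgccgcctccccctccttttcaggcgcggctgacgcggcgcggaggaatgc
Lamb3: cacccagccaGGGAGTCTCCagaggtgagg

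RefSeq promoter windows of 300 bases (250 before and 50 after the start) were matched for 24 of the 38 genes and searched on both strands. The NF-kB motif was found in 1 of the 24, Lamb3, against 5.14% of 27025 genes with a window. The AP-1 motif TGANTCA was found in 3 (Itga3, Itga9 and Itgax) against 8.97%, and the E-box CACGTG in 0 against 8.09%. GC boxes were found in 11 against 38.2%, among them Itga2, Itga5 and Itgb1; that of Itga2 lies after the start, outside the bases shown. The TATA box TATAAA was found in 0 against 15.7%. No match of one motif overlapped a match of another. The GC box and the TATA box were added to the search after the data were seen. These are matches of letters only.

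Of the 38 genes, 27 reached 1 RPM in at least 1 library and were compared: 18 integrin and 9 laminin chains. The other 11 stayed below it. Itga8, an RGD-binding alpha chain, and Itgax, a leukocyte alpha chain, had no read in any library, and a count of 0 allows up to 0.132, 0.160, 0.125 and 0.141 RPM. The fibronectin and VCAM-1 receptor chain Itga4 had 4 to 7 reads, and its gut-homing partner Itgb7 had 3 to 10. The epithelial chain Itgb6 had 8 to 11 reads. The leukocyte chains Itgae, Itgad and Itgal had 6 to 14, 1 to 4 and 0 to 3 reads, and Itgb2l had 2 reads in all. The laminin alpha chains Lama1 and Lama3 had 0 to 2 and 3 to 10 reads. The genes without enough reads were thus mostly those of leukocyte integrins, with Itgb6 and Lama3 as the chains best known from epithelia.

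Levels of different genes are compared per kilobase of merged exons, as means over the 4 libraries. Itgb1, the beta chain with the most alpha partners, had the highest level at 211 RPM per kb. It made up 74.4% to 80.9% of all beta chain signal per kb, ahead of the hemidesmosome chain Itgb4 at 26.3 RPM per kb and the vitronectin receptor chain Itgb5 at 24.3. Itgb3, the chain of the platelet and osteoclast receptors, followed at 7.82 RPM per kb. Itgb8, which activates latent TGF-beta together with the alpha-v chain, stood at 0.99 RPM per kb, and the leukocyte chain Itgb2 at 0.463. In reads, Itgb1 had 19943, 16582, 19330 and 18618, or 880, 886, 804 and 872 RPM, so the libraries differed little.

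Among alpha chains the laminin receptor chain Itga3 stood first at 79.4 RPM per kb and held 82.7% to 87.7% of the laminin-binding class. Its reads were 9653, 8201, 11069 and 10426, or 426, 438, 460 and 488 RPM. The fibronectin receptor chain Itga5 followed at 37.9 RPM per kb and the vitronectin receptor chain Itgav at 29.3, an order that turned to 42.6 and 44.6 when the longest transcript set the length. The other laminin receptor chains Itga7 and Itga6 lay at 8.81 and 5.00 RPM per kb, or 17.7 and 10.5 with the longest transcript as length. On merged exons no other alpha chain passed 1.05 RPM per kb, the level of Itga2b, the platelet fibrinogen receptor chain. The megakaryocyte marker Pf4 had 0, 0, 2 and 0 reads beside the 132, 78, 181 and 116 of Itga2b.

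Among the laminin chains, the alpha and the gamma kinds were each led by 1 gene. Lama5, the alpha chain of the laminins found most widely under adult epithelia, held 96.7% to 97.0% of the alpha chain signal per kb, with 511, 484, 523 and 475 RPM. Lamc1, the gamma chain of most laminins, held 94.4% to 95.3%, with 329, 329, 345 and 353 RPM. The beta chains were shared between Lamb1, at 55.2% to 63.4%, and Lamb2, at 34.7% to 43.4%. Lamb1 had 307, 310, 282 and 303 RPM and Lamb2 133, 104, 136 and 109 RPM. The epidermal beta chain Lamb3 had 113 to 148 reads, against the 3 to 10 of Lama3 given above. Per kb, Lama5, Lamc1 and Lamb1 had 43.7, 41.0 and 30.3 RPM, and with the longest transcript as length 43.7, 44.5 and 51.9, so the order between kinds of chain depends on the length used.

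**Figure D1:**
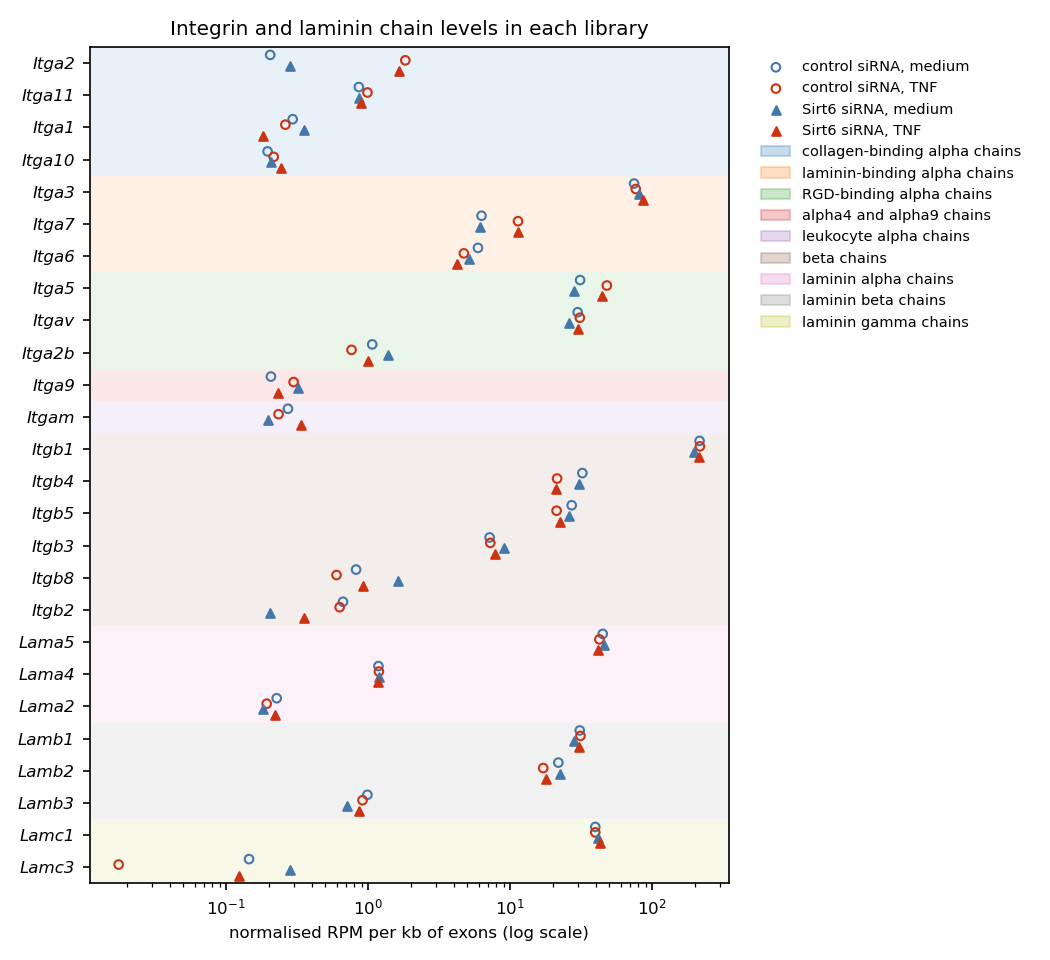
Level of 26 of the 27 compared genes in each of the 4 libraries, in normalised RPM per kilobase of exons on a log axis; open circles are control siRNA, filled triangles Sirt6 siRNA, blue is medium and red is TNF, and background colours mark the classes of chains. Itgb1 lies farthest to the right at a mean of 211 RPM per kb, and Itga2 shows the widest gap between red and blue points among genes with over 40 reads in both TNF libraries.

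Itga2, the collagen receptor alpha2 chain, rose with TNF, and most chains stayed short of 1.5-fold either way. At 2-fold, with control siRNA, 1 of the 27 genes rose (2.29% of the 15274 genes compared passed upward) and 1 fell (1.24% passed downward). With Sirt6 siRNA, 1 rose (2.17% of all genes) and 1 fell (1.49%). The same pair passed both times, Itga2 upward (1.62% of all genes passed upward both times) and Lamc3 downward (0.524%). Lamc3 had 20, 2, 41 and 16 reads and reached 1 RPM only in the library with Sirt6 siRNA and medium. Its place in the downward counts is therefore partly set by that minimum. The median log2 ratio of the 27 was -0.00 under the control and 0.04 under the Sirt6 siRNA, and that of all genes -0.00 and -0.01.

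Itga2 had 33, 244, 48 and 252 reads, or 1.46, 13.0, 1.996 and 11.8 RPM. Both TNF libraries lay far above both medium libraries. It rose 8.47-fold under control siRNA (log2 3.08, 2.63 to 3.73) and 5.70-fold under Sirt6 siRNA (log2 2.51, 2.11 to 3.04). Per kb it went from 13.1% and 16.5% of the collagen-binding alpha chains in medium to 55.5% and 55.8% with TNF. Itga11, a collagen I receptor chain of stromal cells, went from 55.3% and 50.6% to 30.0% and 29.9% of that class while its own ratios were near 0 (log2 0.20, -0.22 to 0.62, and 0.04, -0.37 to 0.46). Itga10, a chondrocyte collagen receptor chain, had 21 to 27 reads in each library; 30.6% of its 50-base sequences also occur in another annotated gene, so its counts are uncertain.

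Itga1, the other classical collagen receptor alpha chain, had 124, 91, 157 and 72 reads. Its log2 TNF ratio was -0.17 (-0.58 to 0.23) with control siRNA and -0.93 (-1.38 to -0.54) with Sirt6 siRNA. The latter was past 1.5-fold and short of 2-fold. Neither Itga1 nor Itga11 therefore shared the rise of Itga2.

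A ratio of 1.5-fold was used as a second threshold. With control siRNA, 3 of the 27 genes were past it upward (4.94% of all genes) and 2 downward (4.46%). With Sirt6 siRNA, 3 were past it upward (4.43%) and 3 downward (5.36%). Upward both times were Itga2, Itga5 and Itga7 (2.90% of all genes), and downward both times Lamc3 alone (2.29%). Lamc3 was compared only through a medium library, as given above, so its place in these downward counts is partly set by the minimum. In the downward lists, Itgb4 passed with control siRNA, and Itga1 and Itgb8 with Sirt6 siRNA.

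Itga5 pairs with the beta1 chain as the main fibronectin receptor. It had 3475, 4431, 3319 and 4682 reads, or 153, 237, 138 and 219 RPM. The TNF libraries were 1.54-fold (log2 0.62, 0.56 to 0.69) and 1.59-fold (log2 0.67, 0.60 to 0.73) higher. Itgav, the other abundant RGD-binding chain, had 321, 333, 281 and 323 RPM and log2 ratios of 0.05 (0.00 to 0.10) and 0.20 (0.15 to 0.25). The share of Itga5 in the RGD-binding class went from 50.1% and 50.4% to 60.2% and 58.9%.

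Itga7, a laminin receptor chain best known from muscle, had 1152, 1721, 1202 and 1975 reads, or 50.9, 91.9, 50.0 and 92.5 RPM. The TNF libraries were 1.81-fold (log2 0.85, 0.75 to 0.96) and 1.85-fold (log2 0.89, 0.78 to 0.99) higher, and the values under the 2 siRNAs were nearly equal. Itga6 went the other way, with 53.6, 42.6, 46.4 and 37.9 RPM and log2 ratios of -0.33 (-0.46 to -0.20) and -0.29 (-0.43 to -0.16). Itga3 had log2 ratios of 0.04 (-0.00 to 0.08) and 0.09 (0.05 to 0.12). In the laminin-binding class the share of Itga7 therefore went from 7.24% and 6.72% to 12.2% and 11.3%, and that of Itga6 from 6.83% and 5.60% to 5.09% and 4.15%.

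Itgb4, the partner of the alpha6 chain in hemidesmosomes, had 5126, 2813, 5133 and 3163 reads, or 226, 150, 213 and 148 RPM. The TNF libraries were 1.51-fold (log2 -0.59, -0.66 to -0.52) and 1.44-fold (log2 -0.53, -0.59 to -0.46) lower. Both chains of the alpha6beta4 receptor were thus lower with TNF under each siRNA, short of 2-fold. Itgb5 had log2 ratios of -0.35 (-0.45 to -0.26) and -0.21 (-0.30 to -0.12). Itgb1 had 0.01 (-0.02 to 0.04) and 0.12 (0.09 to 0.15), and Itgb3 had 0.02 (-0.12 to 0.15) and -0.23 (-0.35 to -0.10). The share of Itgb4 in the beta chains went from 11.4% and 11.5% to 7.98% and 7.93%.

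Among laminins, Lamc3, a gamma chain of few tissues, had 20, 2, 41 and 16 reads, or 0.883, 0.107, 1.70 and 0.750 RPM. It fell with TNF, 4.90-fold under control siRNA (log2 -2.29, -6.19 to -1.01) and 2.13-fold under Sirt6 siRNA (log2 -1.09, -2.12 to -0.32). Those values rest on few reads, 2 in the library with control siRNA and TNF. Lamc3 was compared only because it passed 1 RPM in the library with Sirt6 siRNA and medium, where it was highest, and both control siRNA libraries lie below that minimum. Lamb2 was lower with TNF by a small and like amount under each siRNA (log2 -0.35, -0.44 to -0.27, and -0.32, -0.39 to -0.24). Lama5, Lamb1 and Lamc1 stayed within 0.14 of no change on the log2 scale in both comparisons, and Lama4, an alpha chain of vessels and mesenchyme, within 0.01.

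With no threshold of size, more chains were lower with TNF than higher by their counting intervals. Intervals of both TNF ratios lay above no change for 5 of the 27 genes (18.5%, against 14.6% of all genes) and below it for 8 (29.6%, against 14.7%). The 8 were Itga2b, Itga6, Itgb4, Itgb5, Itgb8, Lama5, Lamb2 and Lamc3. As given above, Lamc3 was compared only through a medium library, where it was highest, so its place among the 8 is partly set by the minimum. Narrow intervals come with many reads, and 13 of the 27 had a mean of 500 reads or more. Among these 13 the downward share was 38.5%, against 19.5% of the 7617 genes with as many reads, a threshold chosen after the data were seen. The upward share of the 13 was 23.1%, against 23.7% of the 7617. Over all genes, TNF ratios were lower at higher transcript GC content (Spearman rank correlation -0.15 with control and -0.24 with Sirt6 siRNA). Median GC content was 53.0% for the compared chains and 50.0% for all genes. The part of base composition in these shares was not tested.

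**Figure D2:**
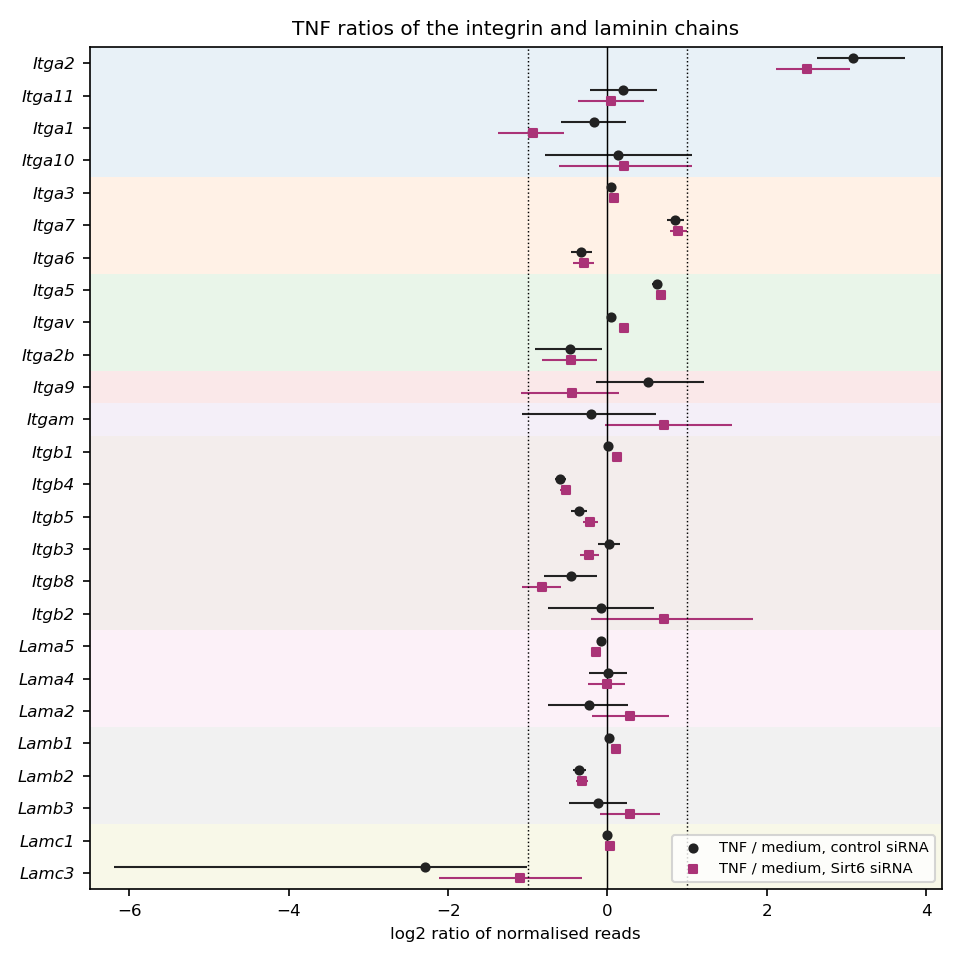
Log2 ratio of TNF to medium for 26 of the 27 compared genes, with 95% counting intervals; black circles are control siRNA and purple squares Sirt6 siRNA, and dotted lines mark 2-fold. Itga2 lies beyond the line on the right at 3.08 and 2.51 and Lamc3 beyond that on the left at -2.29 and -1.09, while Itga5, Itga7 and Itgb4 have short intervals clear of 0.

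**Figure D3:**
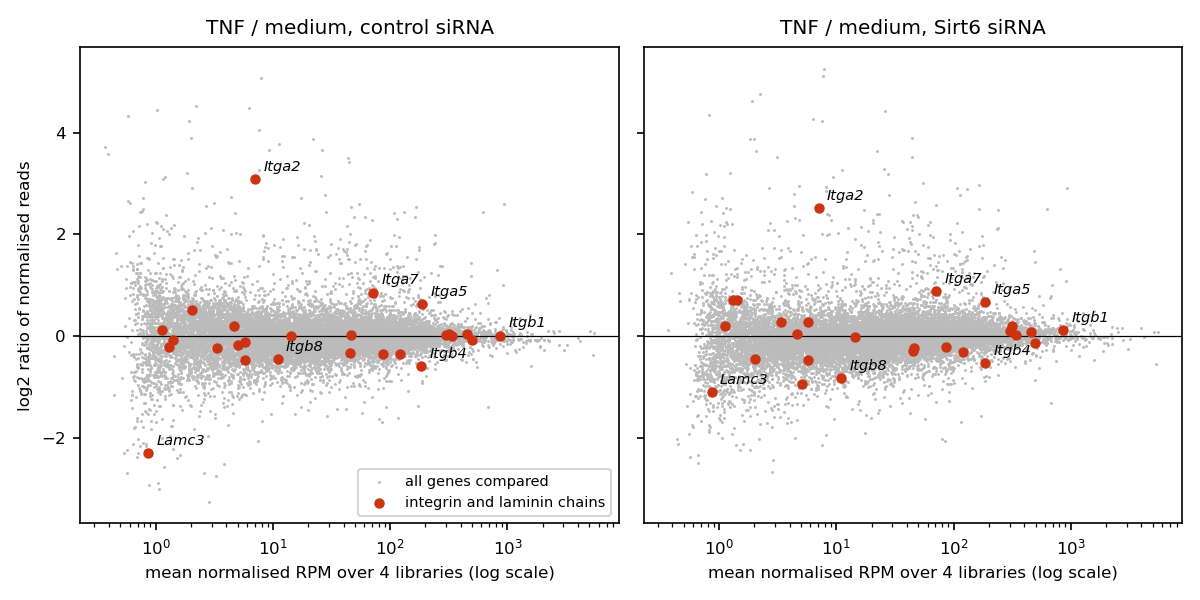
Log2 ratio of TNF to medium against the mean normalised RPM of the 4 libraries (log axis), for all 15274 genes compared (grey) and 26 of the 27 integrin and laminin genes (red), with control siRNA on the left and Sirt6 siRNA on the right. Itga2, at 3.08 and 2.51, lies above nearly all genes of its level, and most other red points lie within the grey band.

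**Figure D4:**
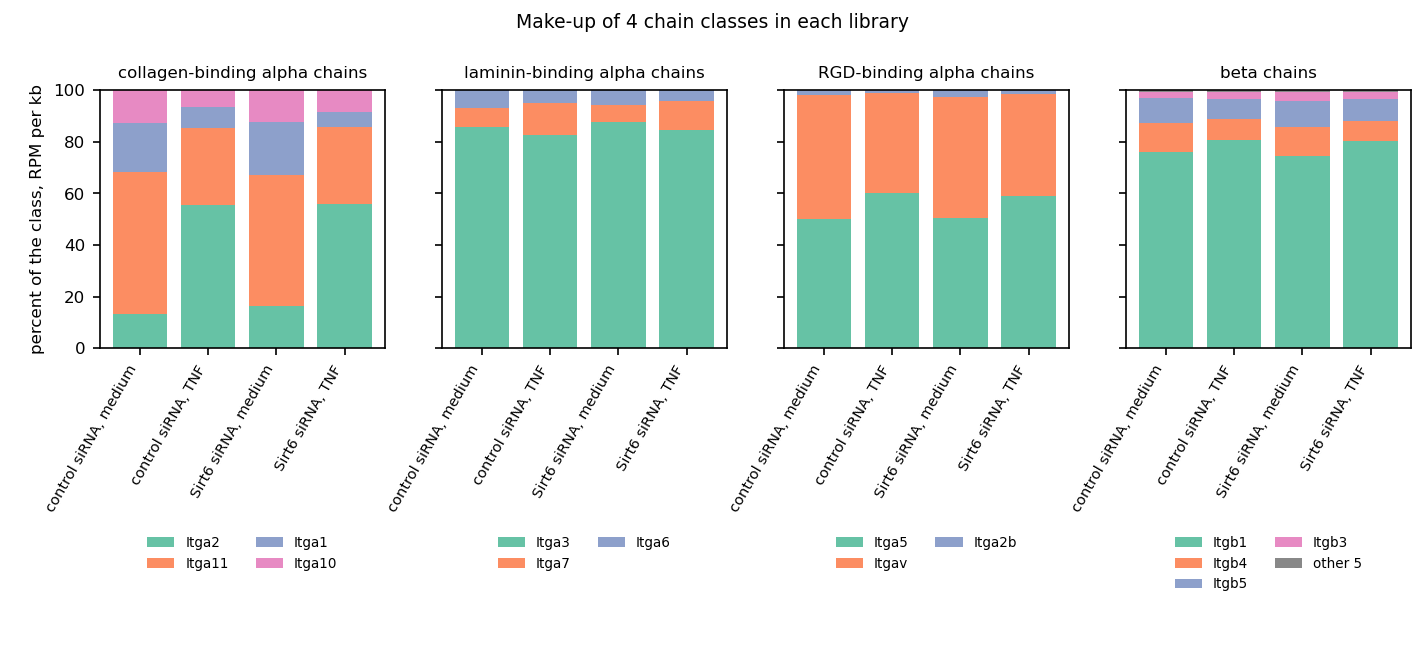
Share of each gene in the summed RPM per kilobase of 4 classes of chains, in percent, in each library. The share of Itga2 in the collagen-binding class is 13.1% and 16.5% in medium and 55.5% and 55.8% with TNF, and Itgb1 holds 74.4% to 80.9% of the beta chains.

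With Sirt6 siRNA few of the chains rose or fell, and none did so both times. In medium, 0 of the 27 genes rose (0.491% of all genes passed upward) and 1 fell (0.524% downward). With TNF, 1 rose (0.393%) and 0 fell (0.655%). No gene of the 27 passed 2-fold in both comparisons, upward (0.0524% of all genes) or downward (0.118%). At 1.5-fold, 3 were past the threshold upward in medium (1.48%) and 1 downward (1.71%). With TNF, 2 were past it upward (1.25%) and 1 downward (2.0%). Past 1.5-fold both times were Itgb8 and Lamc3 upward (0.210%) and Itgb2 downward (0.386%). Lamc3 reached 1 RPM only in the library with Sirt6 siRNA and medium, so its place in the upward counts is partly set by that minimum. The median log2 ratio of the 27 was -0.00 in medium and -0.01 with TNF, against 0.00 and -0.00 for all genes.

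Itgb8 had 206, 124, 432 and 216 reads, or 9.09, 6.62, 18.0 and 10.1 RPM. Sirt6 siRNA left it 1.97-fold higher in medium (log2 0.97, 0.74 to 1.23) and 1.52-fold higher in the TNF libraries (log2 0.60, 0.29 to 0.94). Both Sirt6 siRNA libraries lay above both control libraries. With TNF its log2 ratio was -0.45 (-0.79 to -0.13) under control siRNA and -0.82 (-1.07 to -0.59) under Sirt6 siRNA. Its chain partner Itgav had log2 siRNA ratios of -0.19 (-0.24 to -0.15) without TNF and -0.04 (-0.09 to 0.01) with it. The GC content of Itgb8 transcripts was 40.4%, against a median of 50.0% over all genes. Over all genes, siRNA ratios were higher at higher transcript GC content (Spearman rank correlation 0.20 in medium and 0.05 with TNF). The part of base composition in the Itgb8 ratios was not tested.

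Itgb2, the common beta chain of leukocyte integrins, had 46, 36, 15 and 23 reads, or 2.03, 1.92, 0.624 and 1.08 RPM. In medium it fell 2.97-fold after Sirt6 silencing (log2 -1.57, -2.65 to -0.84) and was 1.72-fold lower with TNF (log2 -0.78, -1.66 to -0.04). Both Sirt6 siRNA libraries lay below both control libraries. The summed level of 11 leukocyte markers was 11.1, 12.4, 10.7 and 14.0 RPM, only Csf1r among them reached 1 RPM, and the common leukocyte antigen gene Ptprc had 0, 0, 4 and 4 reads. Itgam, the alpha partner with the most reads, had 31, 22, 24 and 36, and 66.3% of its 50-base sequences are shared with another annotated gene, so its counts are uncertain.

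Lamc3 rose 4.23-fold with Sirt6 siRNA in the TNF libraries (log2 2.08, 0.72 to 5.98), on 2 and 16 reads, both under the minimum of 1 RPM. In medium its log2 ratio was 0.88 (0.14 to 1.80), on 20 and 41 reads. Lamc3 was compared only through the library with Sirt6 siRNA and medium, at 1.70 RPM, so both ratios are partly set by that minimum. Itga9, a receptor chain for tenascin and VCAM-1, had 36, 43, 59 and 38 reads and was past 1.5-fold upward in medium (log2 0.60, 0.00 to 1.27) with a ratio of -0.35 (-1.04 to 0.30) in the TNF libraries. Itgb3 had log2 ratios of 0.34 (0.22 to 0.46) and 0.10 (-0.04 to 0.24). Of the most abundant chains by class, 6 had small ratios: Itgb1 -0.13 and -0.02, Itga3 0.11 and 0.16, Itga5 -0.15 and -0.11, Lama5 0.03 and -0.03, Lamb1 -0.12 and -0.03, and Lamc1 0.07 and 0.10 on the log2 scale. Itgam, the first of the leukocyte alpha chains, had log2 ratios of -0.42 (-1.29 to 0.36) and 0.49 (-0.28 to 1.36). Itga2, at 0.43 (-0.22 to 1.14) and -0.14 (-0.40 to 0.12), had intervals that held no change.

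**Figure D5:**
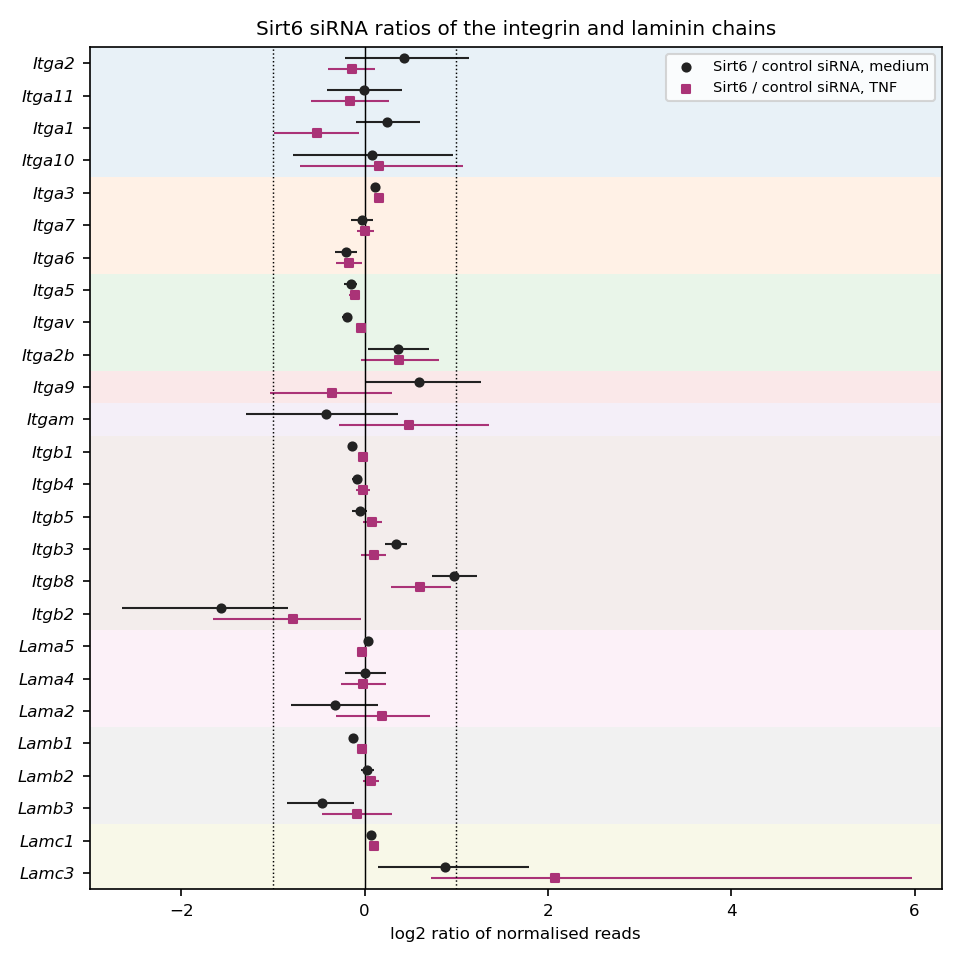
Log2 ratio of Sirt6 siRNA to control siRNA for 26 of the 27 compared genes, with 95% counting intervals; black circles are medium and purple squares TNF, and dotted lines mark 2-fold. Itgb8 lies to the right at 0.97 and 0.60, Itgb2 to the left at -1.57 and -0.78, and Lamc3, with the widest interval, at 0.88 and 2.08.

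The TNF ratio with Sirt6 siRNA was set against that with control siRNA gene by gene. The difference reached 2-fold with an interval clear of 0 for 0 of the 27 genes upward (0.596% of all genes) and 0 downward (1.08%). At 1.5-fold 0 passed upward (1.54%) and 2 downward (2.79%), Itga1 at -0.76 (-1.34 to -0.22) and Itga9 at -0.95 (-1.85 to -0.12). Those of Itga5, Itga7 and Itgb4 were 0.04 (-0.05 to 0.13), 0.03 (-0.11 to 0.18) and 0.06 (-0.03 to 0.16). That of Itga2 was -0.57 (-1.27 to 0.09), an interval wide enough to hold both no difference and one past 2-fold. For Itgb1 the difference was small and its interval clear of 0, at 0.11 (0.07 to 0.15). Intervals lay above 0 for 4 of the 27 genes, Itgb1 among them, and below 0 for 4. Of all 15274 genes, intervals lay above 0 for 1922 and below it for 1303. The median difference was 0.04 over the 27 and 0.01 over all genes.

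A model with 1 term for TNF and 1 for the siRNA over all 4 libraries (edgeR's quasi-likelihood test with Benjamini-Hochberg adjustment at 0.05) drew its spread from all genes and had 1 residual degree of freedom. For TNF it called 5 of the 27 genes higher (14.4% of all genes), among them Itga2, Itga5, Itga7 and Itgav. It called 9 lower (15.1%), namely Itga1, Itga2b, Itga6, Itgb4, Itgb5, Itgb8, Lama5, Lamb2 and Lamc3. For the siRNA it called 3 higher (3.43%), Itga3, Itgb3 and Itgb8, and 1 lower (3.16%), Itgb2. The model takes the TNF effect to be equal under both siRNAs, so its residual is the difference between the 2 TNF responses. Itga1, in its list of lower genes, had a log2 TNF ratio of -0.17 (-0.58 to 0.23) with control siRNA. Lamc3, in the same list, was compared only through a medium library, so its place is partly set by the minimum of 1 RPM. These calls replace no replicates.

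Among genes that work with these chains, those past 2-fold with TNF were integrin ligands. Of 23 measured integrin ligands other than laminins and collagens, 3 rose with TNF under each siRNA (1.62% of all genes passed upward both times) and none fell. Vcam1, a ligand of integrins with the alpha4 or alpha9 chain, had 4542, 20261, 4341 and 21794 reads and rose 5.39-fold and 5.66-fold. Icam1, a ligand of integrins with the beta2 chain, had 1168, 3750, 1045 and 3822 reads and rose 3.88-fold and 4.11-fold. Madcam1, the ligand of the alpha4beta7 receptor, had 2, 26, 0 and 38 reads, at least 14.3-fold higher with TNF under Sirt6 siRNA against a floor of 3 reads. It reached 1 RPM only in the TNF libraries, where it is high, so its place in the count is partly set by that minimum. Of the matching receptor chains, Itga4, Itgb7 and Itgb2 had at most 7, 10 and 46 reads in any library. Itga9, the other VCAM-1 receptor chain named above, had 36 to 59 reads. Itgb1, the beta chain with the most alpha partners, had 16582 to 19943.

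With Sirt6 siRNA the matricellular ligand gene Postn fell in both comparisons, on 22, 22, 8 and 6 reads, as the 1 ligand of 23 past the rule in each (0.118% of all genes passed downward both times). Of 38 measured integrin activators and focal adhesion genes none passed with TNF, and with Sirt6 siRNA 1 fell in both comparisons, the Src-binding adaptor Efs, on 45, 24, 17 and 8 reads. Postn and Efs reached 1 RPM only in control siRNA libraries, so their falls are partly set by that minimum. Of 16 basement membrane partners of laminin, Col4a3, a collagen IV chain, had 66, 45, 141 and 105 reads and log2 siRNA ratios of 0.99 (0.58 to 1.45) without TNF and 1.01 (0.52 to 1.57) with it, the latter past 2-fold. No gene passed in any comparison among 4 measured hemidesmosome partners, 6 other laminin receptors and 10 tetraspanins and associated proteins. Median log2 TNF ratios of the 6 lists lay between -0.15 and 0.11, and their median log2 siRNA ratios between -0.18 and 0.03.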

How the data were processed

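Polyadenylated RNA was sequenced from 4 cultures, 1 per group, per the labels' protocols. The deposited table gives whole-number read counts per gene for each library, made by the authors, and a second set of deposited values headed RPKM per the file headers, which equal RPM (counts per 1000000 of the library total) to within 0.0005. CASAVA, Bowtie 1.0.1 and edgeR are named in the submitters' processing notes; the genome build, annotation, counter and strand setting are not given in those sources. Gene positions are therefore left out, except those of the RefSeq sequences shown, which are on GRCm38.p6. Analysis used edgeR 4.0.16 and DESeq2 1.42.0 in R 4.3.3, and Python 3.11.15.

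A gene was compared where it reached 1 RPM in any library. Library sizes were scaled by TMM, and log2 ratios used a prior count of 2. Intervals of ratios are exact conditional binomial 95% intervals without the prior, and a ratio of at least 2 with an interval leaving out 1 passed. The difference of TNF responses had an interval from the delta method, after adding 0.5 to every count, and passed at a log2 size of at least 1. A count of 0 was taken to allow 3 reads per library. The reads carry no molecular identifiers and may repeat a molecule, so intervals cover counting error only. Lengths, GC content and shared 50-base sequences came from GENCODE M21, in which all 38 genes were matched; promoter sequences are RefSeq's. The scripts were tested on simulated data.

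Named in full are the genes past 2-fold in any comparison or past 1.5-fold in the same direction in both TNF or both siRNA comparisons, and the most abundant of each class. Other genes with values were chosen after these were seen. The genes, gene lists, thresholds and motifs were chosen with earlier results of these data known. Alternatives were DESeq2 size factors, library totals alone, no filter, a minimum of 5 RPM, a prior count of 0.5, the 1.5-fold threshold and the additive edgeR model. The values of 1 of the 27 genes compared are not reported here; it is part of the counts and medians.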

Additional observations from a re-analysis of the deposited data

Results flagged for a closer look

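The TNF response of 2 genes differed between the siRNAs by an interval of counting error that left out 0, past 1.5-fold. The log2 TNF ratio under Sirt6 siRNA, less the one under control siRNA, was -0.95 for Itga9 (-1.85 to -0.12), on 36, 43, 59 and 38 reads. It was -0.76 for Itga1 (-1.34 to -0.22), on 124, 91, 157 and 72 reads. The log2 TNF ratios of Itga9 were 0.51 (-0.14 to 1.21) with control siRNA and -0.44 (-1.09 to 0.15) with Sirt6 siRNA. Each of these intervals for Itga9 held no change. With 1 library per group, neither difference was tested against replicates. At the 1.5-fold threshold 2.79% of all genes passed downward.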

How the results depend on the processing

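Under the settings that keep the size rule, no called ratio of the 27 genes changed sign, and the calls lost were those of Lamc3 and Itgb2, which the minimum of 5 RPM left out. Of 780 values recomputed for single genes, 762 stayed on their side of the threshold, 14 passed only at 1.5-fold and 4 moved by more than their counting interval. Those 4 are log2 TNF ratios with Sirt6 siRNA under library totals alone: 0.04 for Itga3, 0.07 for Itgb1, -0.19 for Lama5 and -0.01 for Lamc1. No scaling moved the median of all genes by over 0.06 on the log2 scale.

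At 1.5-fold the counts for TNF were 3 higher and 2 lower under control siRNA, 3 and 3 under Sirt6 siRNA, and 3 higher both times. For Sirt6 siRNA they were 3 higher in medium, 2 higher and 1 lower with TNF, and 2 higher and 1 lower both times. For the difference of TNF responses 2 were lower. The additive edgeR model counted 5 higher and 9 lower for TNF and 3 higher and 1 lower for the siRNA. The 5 RPM minimum left 21 of the 27 genes, without Lamc3 and Itgb2. That took the counts of lower genes to 0 for TNF under each siRNA and both times, and for Sirt6 siRNA in medium, and that of higher genes to 0 for Sirt6 siRNA with TNF. Col4a3 no longer passed 2-fold with library totals alone.

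Leaving out a library was not possible, since each group has 1. No paired analysis was possible because each group holds a single library and the labels give no replicate numbers. Depth limits Itga9, Itga10, Itgam, Itgb2 and Lamc3 most, whose intervals spanned more than 2-fold in every comparison.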
